A study of Mus musculus with 8 samples.

Results

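Chemokines are small secreted proteins that direct the movement of leukocytes, and alarmins are proteins that stressed or damaged cells release to alert the immune system. The intestinal epithelium makes both. Its chemokines bind receptors on lymphocytes, neutrophils and monocytes, the alarmin IL-33 acts on cells that carry the receptor ST2, and the IL-1 receptor antagonist blocks signalling by IL-1. Transcripts of 10 such genes, chosen by name as Il33, Il1rn, Cxcl10, Cxcl1, Cxcl5, Ccl20, Cx3cl1, Ccl6, Ccl25 and Ccl28, are described here among 16958 genes with values in mouse intestinal crypts.

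The study deleted Setdb1, a histone H3 lysine methyltransferase, in mice of the strain C57BL/6, aged 8 weeks per the sample labels, or 8 to 10 weeks per their protocol. The control crypt library (WT) carries the genotype setdb1fl/fl, that is floxed alleles. The 5 knockout crypt libraries have the genotype setdb1 iIEC-KO and the names VEMD2, VEMD3, VEMD4, VEMD6 and VEMD8. Their deletion was induced through Villin-CreERT2, a recombinase driven by an epithelial promoter, so other cells in a crypt preparation keep the gene. A single dose of tamoxifen, 800 mg/kg, is stated for Villin-CreERT2 mice and for WT littermates alike. The labels do not spell out VEMD, name the gut segment or say whether a library was 1 animal or a pool, and the library numbers are used here only as names. A pair of intestinal stem cell samples in the series was not analysed here.

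Each group was 1 library, so no value carries an error, no difference was tested, and higher and lower describe these libraries alone. Levels are FPKM, fragments scaled to gene length and library size, which permit comparison between genes per length. Counts were not used here and the depth behind each value is unknown. A ratio is log2((knockout + 1)/(WT + 1)) of FPKM, which understates the change of low genes, and a gene is called higher or lower at 2-fold or more, that is at 1 or -1. Steps between neighbouring levels are judged on the same scale. The background is the 10862 genes whose mean over the 6 libraries reached 1 FPKM. Of the 10 genes 9 passed this filter, while Cxcl5 did not. Cxcl1 and Il1rn, under 1 FPKM in WT, passed only through their knockout values. Setdb1 itself stood at 9.42 FPKM in WT, with VEMD2 at 6.64, VEMD3 at 7.03, VEMD4 at 5.49, VEMD6 at 3.53 and VEMD8 at 4.95, so its transcript was lower in all 5 knockout libraries and still present in each. The median ratio of the background genes was 0.12 in VEMD3 and -0.23 in VEMD6, and within 0.09 of 0 in the others. All 6 libraries carried Y-linked transcripts, with Ddx3y between 8.36 and 12.3 FPKM. Epithelial markers summed to between 5651 and 7759 FPKM over 9 genes.

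Promoter sequences from RefSeq on GRCm38.p6 were matched to 9 of the 10 genes, in 13 entries because some genes have several starts. The 250 bases before each start were searched on both strands for an NF-kB motif (GGG and TTCC separated by any 3 bases), an interferon response motif (TTTC and TTTC separated by any 2 bases), the gamma-activated motif TTCNNNGAA and the AP-1 motif TGANTCA, and on the forward strand for TATAAA. NF-kB and AP-1 are transcription factors of inflammatory signalling. The NF-kB motif was found before Cxcl10, Cxcl1 and Ccl20 and before 1 start of Il1rn, against 4.65% of 32851 promoters. The interferon response motif was found only before Cxcl10 among the 9, against 2.98% of promoters, and the gamma-activated motif before none of them, against 7.02%. The AP-1 motif stood before Cxcl10 and 1 start of Il1rn, against 6.75%. TATAAA was found before a start of Ccl25 and of Cx3cl1 and before both starts of Il33, against 7.59%. These shares count single promoters, whereas a gene with several starts had more chances of a match, so genes and shares are not like for like. The 3 promoters below are shown because these chemokines carry the NF-kB motif and differed between libraries in distinct ways. Each run ends at the base before the start, reads 5′ to 3′ on the strand of the gene, and has its motif matches in capitals.
Cxcl10, minus strand, chr5:92348890-92349139: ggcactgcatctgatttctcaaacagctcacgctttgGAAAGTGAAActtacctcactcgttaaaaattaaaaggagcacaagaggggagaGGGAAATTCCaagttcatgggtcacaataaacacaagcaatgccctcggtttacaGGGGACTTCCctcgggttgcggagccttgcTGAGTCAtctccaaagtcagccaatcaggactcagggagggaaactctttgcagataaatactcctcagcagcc
Cxcl1, plus strand, chr5:90890995-90891244: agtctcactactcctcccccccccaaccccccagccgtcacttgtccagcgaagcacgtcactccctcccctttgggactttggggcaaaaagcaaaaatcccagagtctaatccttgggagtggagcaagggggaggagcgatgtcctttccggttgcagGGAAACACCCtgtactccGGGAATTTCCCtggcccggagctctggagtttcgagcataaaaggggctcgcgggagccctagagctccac
Ccl20, plus strand, chr1:83116516-83116765: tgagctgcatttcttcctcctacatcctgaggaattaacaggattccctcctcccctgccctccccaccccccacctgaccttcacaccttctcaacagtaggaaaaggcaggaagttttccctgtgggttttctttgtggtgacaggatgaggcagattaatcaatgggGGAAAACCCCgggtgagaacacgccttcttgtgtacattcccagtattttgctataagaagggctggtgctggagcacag
In Cxcl10 the capitals mark, in order, the interferon response motif 213 to 204 bases before the start, NF-kB motifs from 159 and from 104 bases before it, and the AP-1 motif from 74 bases before it. In Cxcl1 they mark an NF-kB motif from 89 bases before the start and a second, which reads as a match on both strands with a shift of 1 base, from 71 bases before it. Ccl20 has 1 match, from 80 to 71 bases before its start. A match describes these letters alone and does not show that a factor binds there.

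The 10 transcripts did not share 1 pattern over the libraries. In VEMD4 the alarmin Il33, its relative Il1rn and the CXC chemokines Cxcl10, Cxcl1 and Cxcl5 stood at their highest level of the 6 libraries. These were 5 of the 10 genes, whereas 11.6% of the background genes had their highest value there. Cxcl5 is outside the background, and Cxcl1 and Il1rn entered it only through knockout values, so count and share are not like for like. Ccl25 and Ccl28 were highest in WT, Ccl6 in VEMD2, Cx3cl1 in VEMD6 and Ccl20 in VEMD8. A 2-fold difference from WT in at least 1 knockout library was seen for 9 of the 10 genes, all but Cx3cl1, and for 24.5% of background genes. Among the 9 genes that passed the filter it was seen for 8. Of the 10, 6 were called higher in at least 1 library and 4 lower, with Ccl20 in both counts, beside 12.2% and 13.4% of background genes. Without Cxcl5, 5 were called higher and 4 lower. No gene of the 10 was called higher in all 5 knockout libraries, against 0.571% of background genes, and none was called lower in all 5, against 0.626%. Cxcl1, Cxcl5 and Il1rn, under 1 FPKM in WT, could not have been called lower with 1 FPKM added, so counts of lower genes rest on the others. Il33 was called higher in every knockout library except VEMD2, and Cxcl10 in every one except VEMD8.

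**Figure D1:**
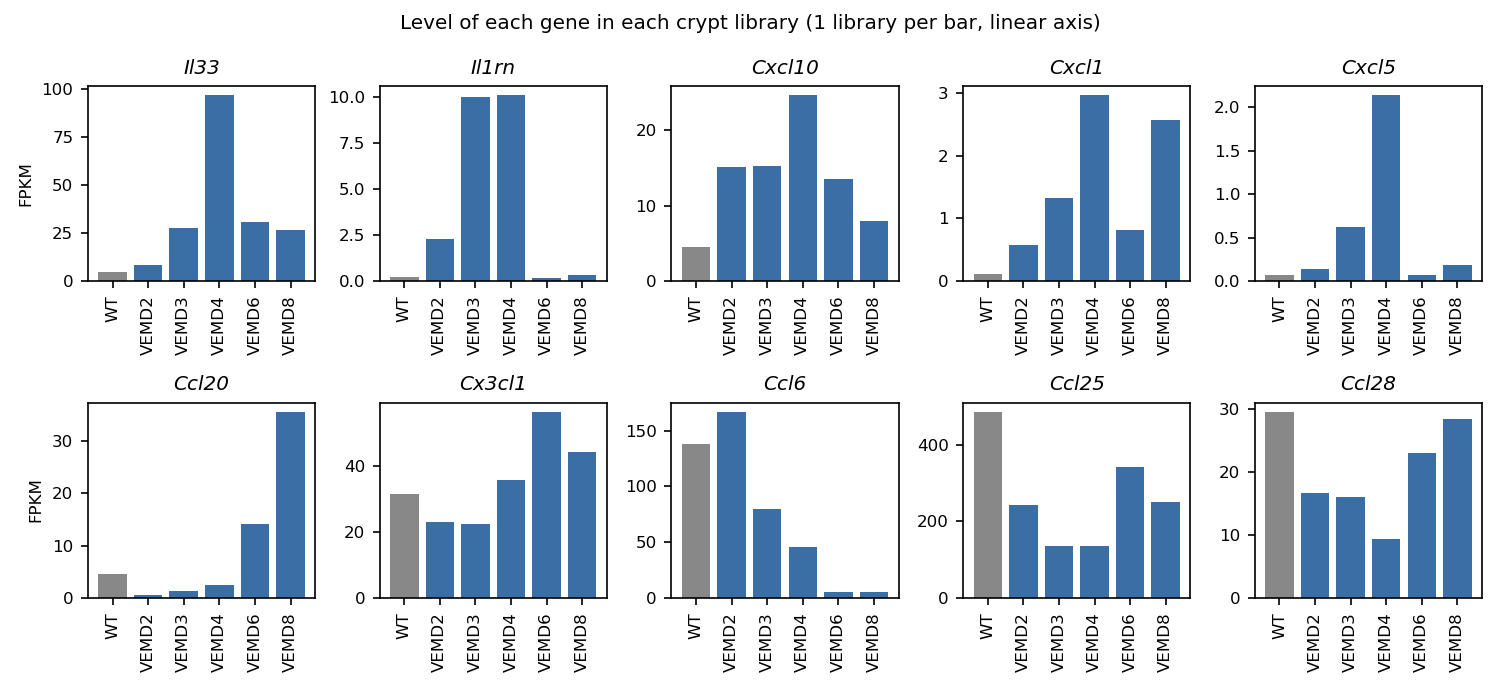
Level of each of the 10 genes in FPKM on a linear axis from 0, with 1 bar per crypt library, grey for WT and blue for Setdb1 knockout libraries. Il33, Il1rn, Cxcl10, Cxcl1 and Cxcl5 have their tallest bar in VEMD4, Ccl20 has its tallest in VEMD8 at 35.7 FPKM, and Ccl25 and Ccl28 have theirs in WT.

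By library, VEMD2 had 2 of the 10 genes higher (Cxcl10 and Il1rn) and 1 lower (Ccl20), beside 2.44% and 2.39% of background genes. VEMD3 had 4 higher (Il33, Cxcl10, Cxcl1 and Il1rn) and 2 lower (Ccl20 and Ccl25), beside 6.00% and 4.63%. In VEMD4, 5 were higher (Il33, Cxcl10, Cxcl1, Cxcl5 and Il1rn) and 3 lower (Ccl6, Ccl25 and Ccl28), beside 7.11% and 5.04%, where Cxcl5 itself is outside the background. VEMD6 had 3 higher (Il33, Ccl20 and Cxcl10) and 1 lower (Ccl6), beside 5.04% and 8.15%. In VEMD8, 3 were higher (Il33, Ccl20 and Cxcl1) and 1 was lower (Ccl6), beside 4.36% and 5.21%. Calls of Cxcl1 and Il1rn as higher are not like for like with these shares, since both entered the background only through knockout values. Neither they nor Cxcl5 could have been called lower. The 5 comparisons share the WT library, so 1 unusual WT value would enter all of them.

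**Figure D2:**
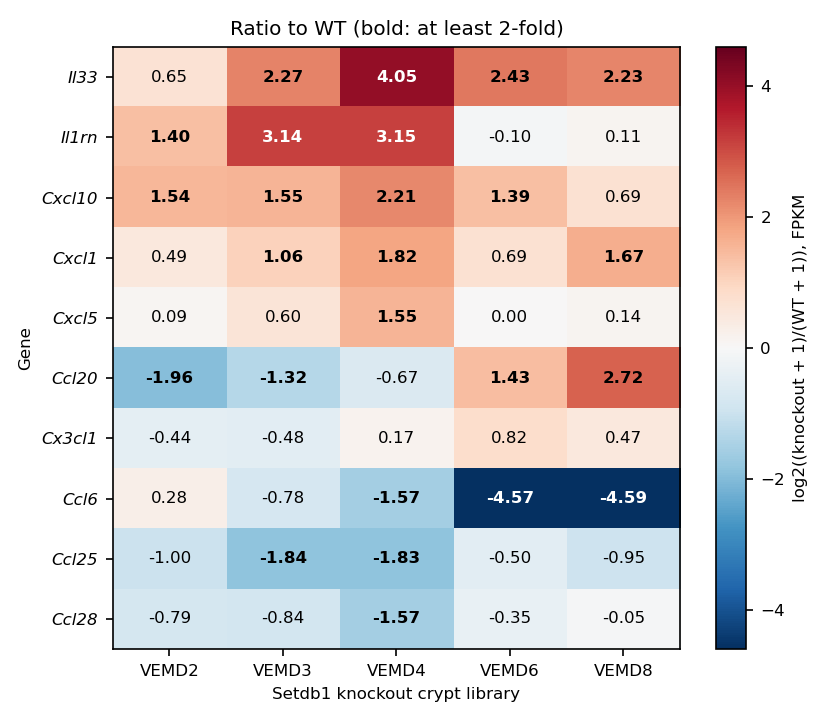
Log2 ratio to WT of each gene (rows) in each Setdb1 knockout crypt library (columns), on FPKM with 1 added to both values, red for higher and blue for lower, with ratios of at least 2-fold in bold. The upper rows are red toward VEMD4, Ccl20 turns from -1.96 in VEMD2 to 2.72 in VEMD8, and Ccl6 reaches -4.57 and -4.59 in VEMD6 and VEMD8.

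Among the alarmins, Il33 (gene 77125, chromosome 19, 29925113 to 29960718 on GRCm38) encodes a nuclear cytokine released from damaged cells. It was at 4.89 FPKM in WT, with VEMD2 at 8.26, VEMD3 at 27.5, VEMD4 at 96.7, VEMD6 at 30.8 and VEMD8 at 26.6. Every knockout library lay above WT, VEMD4 alone stood at the top, and VEMD3, VEMD6 and VEMD8 lay within 2-fold of each other. The ratios in these last 3 were 2.27, 2.43 and 2.23, beside 4.05 in VEMD4 and 0.65 in VEMD2. In rank, Il33 moved from the 24.9th percentile of background genes in WT to the 91.5th in VEMD4. Endothelial and fibroblast cells are other known sources of IL-33. Summed over 10 genes, the fibroblast and muscle list reached 3.27 FPKM in WT and 1.29 to 6.67 across the knockouts, with Vim the largest part in each library. Without Vim the other 9 genes summed to 0.25 FPKM in WT, 2.29 in VEMD4 and at most 0.36 in the other knockouts. Their sum, though not every gene, was thus highest in the library where Il33 was highest. Dcn, a matrix proteoglycan of fibroblasts, stood at 1.3 FPKM in VEMD4 against 0.09 in WT, a ratio of 1.08, and Sparc and Col3a1 at 0.41 and 0.29. Lower in VEMD4 than in WT were Acta2, listed at 0 against 0.07, Des at 0.02 against 0.04, and Vim at 2.42 against 3.02. The endothelial list of 6 genes summed to 2.58 FPKM in WT and to between 2.31 and 13.4 in the knockouts, most of it Lyve1 at up to 13.2, with Cdh5 and Kdr at most 0.15. The part of these cells in the Il33 levels was not tested.

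The receptor of IL-33, ST2, is encoded by Il1rl1, which lay between 0.17 and 0.36 FPKM, and its shared partner chain Il1rap between 0.97 and 2.19. Other alarmins did not all follow the pattern of Il33. Il18, an epithelial cytokine of the IL-1 family stored as an inactive precursor, was at 15.6 FPKM in WT, with VEMD2 at 14.1, VEMD3 at 15.0, VEMD4 at 32.7, VEMD6 at 30.6 and VEMD8 at 67.0. Its highest library was thus VEMD8, with a ratio of 2.04. In VEMD4 the ratio of Il18 was 1.02, or 0.99 after rescaling to the median gene. Hmgb1, a chromatin protein that acts as an alarmin outside the cell, stood at 107 FPKM in VEMD6 against 227 in WT, a ratio of -1.08, or -0.84 after rescaling to the median gene. Tslp was at most 0.20 FPKM. S100a8 and S100a9, alarmins of neutrophils, stood at 2.85 and 3.58 FPKM in VEMD4 and were listed at 0 in WT. Elsewhere both were at most 0.12, so VEMD4 was their highest library, as for Il33.

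Il1rn (gene 16181, chromosome 2, 24336860 to 24351491) encodes the natural antagonist of the IL-1 receptor. Its level was 0.25 FPKM in WT, with VEMD2 at 2.3, VEMD3 at 9.99, VEMD4 at 10.1, VEMD6 at 0.17 and VEMD8 at 0.35. VEMD3 and VEMD4 were thus high, VEMD2 stood between, and VEMD6 and VEMD8 lay beside WT. The ratios were 1.40, 3.14 and 3.15 in VEMD2, VEMD3 and VEMD4, and -0.10 and 0.11 in VEMD6 and VEMD8, where the sign in VEMD6 became 0.14 after rescaling. With 5 FPKM added in place of 1, the ratio in VEMD2 was 0.48. The ligands that it opposes were low: Il1a was at most 0.28 FPKM, and Il1b reached 0.91 in VEMD4 and 0.09 in VEMD3, the other 4 libraries being listed at 0. The receptor gene Il1r1 was at most 0.07 FPKM. Il36g, of the same family and within 165 kb on the chromosome, was between 2.73 FPKM in WT and 5.12 in VEMD8.

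The CXC chemokines Cxcl10, Cxcl1 and Cxcl5 all lie on chromosome 5. Cxcl10 (gene 15945, 92346638 to 92348889) attracts T cells and natural killer cells through the receptor CXCR3 and is induced by interferons. Its level was 4.53 FPKM in WT, with VEMD2 at 15.1, VEMD3 at 15.2, VEMD4 at 24.6, VEMD6 at 13.5 and VEMD8 at 7.93. Every knockout library lay above WT, and no step between neighbouring levels reached 2-fold. The ratios were 1.54, 1.55, 2.21, 1.39 and 0.69 in the same order, and that of VEMD6 was 0.96 with 5 FPKM added in place of 1. Cxcl10 lies within the span of Art3, which was at most 0.36 FPKM, and whether the counting used strand is not given in the sources used here. Il33, Ccl6, Ccl25 and Cx3cl1 each overlap an annotated long noncoding RNA gene that has no value of its own here.

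Cxcl9 and Cxcl11, ligands of the same receptor and neighbours of Cxcl10 within 42.0 kb, did not share its range. Cxcl9 was at 1.72 FPKM in WT, with VEMD2 at 3.11, VEMD3 at 2.47, VEMD4 at 1.7, VEMD6 at 3.44 and VEMD8 at 0.80. Cxcl11 was at 1.68 in WT, with VEMD2 at 1.86, VEMD3 at 1.75, VEMD4 at 3.58, VEMD6 at 2.31 and VEMD8 at 1.58. Neither was called in any library. Their receptor gene Cxcr3 was between 0.11 and 0.37 FPKM.

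Cxcl1 (gene 14825, 90891245 to 90893121) attracts neutrophils through CXCR2. It was at 0.12 FPKM in WT, with VEMD2 at 0.57, VEMD3 at 1.33, VEMD4 at 2.96, VEMD6 at 0.81 and VEMD8 at 2.57. All 5 knockout libraries lay above WT, with VEMD4 and VEMD8 the highest, at ratios of 1.82 and 1.67. In VEMD3 the ratio was 1.06, or 0.93 after rescaling, which ends that call. Even at its highest it stood at the 13.7th percentile of background genes in VEMD4 and at the 14.3rd in VEMD8. With 5 FPKM added in place of 1, none of its ratios reached 2-fold. Cxcl5 (gene 20311, 90759298 to 90761625), which acts on the same receptor, was at 0.07 FPKM in WT, with VEMD2 at 0.14, VEMD3 at 0.62, VEMD4 at 2.14, VEMD6 at 0.07 and VEMD8 at 0.18. VEMD4 alone was high, at a ratio of 1.55, and 0.49 with 5 FPKM added.

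Within 147 kb on chromosome 5, the 4 other CXC chemokine genes measured between and beside Cxcl5 and Cxcl1 did not reach 1 FPKM in any library. Cxcl2, a close relative of Cxcl1, was listed at 0 in WT and VEMD2, and was at 0.45 FPKM in VEMD3, with VEMD4 at 0.91, VEMD6 at 0.11 and VEMD8 at 0.46. Cxcl3, Cxcl15 and Pf4 did not exceed 0.10 FPKM. The sequences of Cxcl1, Cxcl2 and Cxcl3 resemble each other, so the split between them is uncertain at such levels. The receptor gene Cxcr2 was between 2.38 FPKM in VEMD6 and 4.66 in VEMD2.

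Summed markers of leukocytes were also highest in VEMD4, though not every single marker was. The list of 8 genes shared by all leukocytes summed to 22.7 FPKM in WT, 46.0 in VEMD4 and 20.5 to 37.8 in the other knockouts. The list of 11 T cell and intraepithelial lymphocyte genes summed to 149 FPKM in WT, 191 in VEMD4 and 75.8 to 151 in the other knockouts. The macrophage and dendritic cell list of 11 genes summed to 5.58 FPKM in WT and 21.2 in VEMD4, and to between 3.08 and 10.4 in the other knockouts. Of its 11 genes, Cd68, Tyrobp and Mpeg1 were at least 2-fold higher in VEMD4, at 5.4, 4.12 and 2.23 FPKM against 1.38, 0.62 and 0.39 in WT. The other 8 were also above WT there, with Csf1r at 0.42 FPKM, C1qa at 1.03 and Adgre1 at 0.13. Only 3 genes of this list passed the filter, and 2 of them were called higher in VEMD4, beside 7.11% of background genes. Mpeg1 did not pass. Tyrobp passed only through its knockout values, so count and share are not like for like. The neutrophil list of 6 genes summed to 4.72 FPKM in WT, 15.3 in VEMD4 and 5.59 to 7.82 in the other knockouts. Most of its rise in VEMD4 lay in S100a8 and S100a9, which did not pass the filter. The neutrophil markers that passed peaked elsewhere. Ly6g was highest in VEMD8, at 4.53 FPKM against 2.98 in VEMD4 and 1.58 in WT. Cxcr2 was highest in VEMD2, at 4.66 FPKM against 4.63 in VEMD4. The eosinophil and mast cell list of 8 genes summed to 13.6 FPKM in WT and 66.0 in VEMD4, almost all of it the mast cell proteases Mcpt1 and Mcpt2, near copies whose single values are uncertain. These stood at 41.1 and 20.8 FPKM in VEMD4 against 6.26 and 2.78 in WT, and Cpa3, another mast cell protease, at 1.76 against 0.20. Kit, a receptor of mast cells, went the other way, at 1.6 FPKM in VEMD4 against 4.03 in WT, and the eosinophil marker Siglecf stood at 0.33 against 0.32. Ptprc, the pan-leukocyte marker CD45, stood at 2.8 FPKM in VEMD4 against 1.65 in WT. The part of these cells in the levels of Il33, Il1rn, Cxcl10, Cxcl1 and Cxcl5 in VEMD4 was not tested.

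Ccl20 (gene 20297, chromosome 1, 83116766 to 83119167) encodes the ligand of CCR6, which draws B cells, dendritic cells and Th17 cells to mucosal surfaces. It was at 4.57 FPKM in WT, with VEMD2 at 0.43, VEMD3 at 1.23, VEMD4 at 2.49, VEMD6 at 14.1 and VEMD8 at 35.7. VEMD2, VEMD3 and VEMD4 lay below WT, while VEMD6 and VEMD8 lay above it. Ratios were -1.96, -1.32 and -0.67 in the first group of libraries and 1.43 and 2.72 in the second. Among background genes, 1.13% were 2-fold higher in 1 knockout library and 2-fold lower in another. The low side rests on small values, since with 5 FPKM added the ratios of VEMD2 and VEMD3 were -0.82 and -0.62. That of VEMD6 was then 0.99.

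Markers of gut position also differed between libraries, and not all in the same direction. Onecut2, a transcription factor of the proximal small intestine, was at 6.03 FPKM in WT, with VEMD2 at 3.12, VEMD3 at 3.84, VEMD4 at 4.68, VEMD6 at 14.5 and VEMD8 at 16.4. Slc40a1, the iron exporter of the duodenum, reached 46.7 FPKM in VEMD6 and 20.9 in VEMD8 against 1.77 in WT, and did not exceed 1.03 in the other knockouts. Fabp6, the bile acid binding protein of the ileum, had 2.27 FPKM in WT, reached 51.7 in VEMD2, and was listed at 0 in VEMD6. Against these, proximal Lct, the lactase of enterocytes, had ratios of -1.90 in VEMD6 and -5.57 in VEMD8, proximal Gata6 was below WT in all 5 knockouts (in VEMD6 only before rescaling), and distal Ostb, a bile acid exporter subunit, had -1.66 in VEMD3 and 0.72 in VEMD6. Enterocyte markers had medians of -1.11, -1.91 and -1.0 in VEMD2, VEMD3 and VEMD4, and of 0.78 and -0.01 in VEMD6 and VEMD8, where rescaling moves the last above 0. The proximal list of 7 genes had medians of -0.68, -0.54 and -0.45 in VEMD2, VEMD3 and VEMD4, and of 1.14 and 0.23 in VEMD6 and VEMD8. Of 5 distal genes that passed, the median ran from -0.52 in VEMD8 to 0.35 in VEMD6. The part of gut position or cell make-up in the Ccl20 levels was not tested.

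Cx3cl1 (gene 20312, chromosome 8, 94772180 to 94782427) encodes fractalkine, a chemokine tethered to the membrane by a mucin stalk and shed by the proteases ADAM10 and ADAM17. Its level was 31.7 FPKM in WT, with VEMD2 at 23.0, VEMD3 at 22.4, VEMD4 at 35.7, VEMD6 at 56.6 and VEMD8 at 44.2. VEMD2 and VEMD3 lay below WT and the other 3 above it, with no step of 2-fold between neighbouring levels. The ratios ranged from -0.48 in VEMD3 to 0.82 in VEMD6, so it was called in no library, but the ratio in VEMD6 was 1.05 after rescaling. Adam10 lay between 39.9 and 47.9 FPKM and Adam17 between 10.9 and 17.4. Its receptor gene Cx3cr1 was at most 0.33 FPKM.

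On either side of Cx3cl1, within 66.4 kb, lie Ccl22 and Ccl17, ligands of CCR4. Ccl22 had 0.06 FPKM in WT, was listed at 0 in VEMD2, and had 0.13 in VEMD3, with VEMD4 at 4.63, VEMD6 at 0.81 and VEMD8 at 0.70. It was therefore high in VEMD4 alone, with a ratio of 2.41, while that of VEMD6 was 0.77, or 1.01 after rescaling. Ccl17 was at most 0.83 FPKM.

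Ccl6 (gene 20305, chromosome 11, 83587886 to 83593087) encodes a rodent CC chemokine that acts on CCR1. It was the second most abundant of the 10 transcripts in WT. Its level was 137 FPKM in WT, with VEMD2 at 167, VEMD3 at 79.4, VEMD4 at 45.5, VEMD6 at 4.83 and VEMD8 at 4.73. VEMD6 and VEMD8 formed a low pair, with the step up to VEMD4 the only one of 2-fold or more. The WT level was 28.5-fold that of VEMD6 and 29.1-fold that of VEMD8. In rank the gene moved from the 93.8th percentile of background genes in WT to the 29.8th in VEMD6 and the 25.2nd in VEMD8. Its neighbour Ccl9, a close relative, was at 18.6 FPKM in WT, with VEMD2 at 18.6, VEMD3 at 15.9, VEMD4 at 11.9, VEMD6 at 2.34 and VEMD8 at 5.85, with ratios of -2.55 and -1.52 in the last pair. The T cell chemokine Ccl5, in the same 139 kb, was not called in any library, between 30.9 FPKM in VEMD8 and 88.7 in VEMD4.

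Most Paneth cell markers were low in the same libraries as Ccl6. Of 8 markers, 7 were at least 2-fold lower in VEMD6 and in VEMD8, beside 8.15% and 5.21% of background genes. The list had medians of -3.17 and -2.61 there. In VEMD4, 5 were lower, beside 5.04% of background genes, with a median of -1.25. Pnliprp2 went the other way in VEMD4, at 125 FPKM against 41.8 in WT, a ratio of 1.56. It was not called in VEMD6 or VEMD8. The medians in VEMD2 and VEMD3 were 0.55 and -0.23, beside Ccl6 ratios of 0.28 and -0.78. Lyz1, the Paneth cell lysozyme, stood at 490 FPKM in VEMD6 against 4233 in WT. Goblet cell markers had medians of -2.13 and -1.75 in VEMD6 and VEMD8, and enteroendocrine markers -1.67 and -3.027. The sum of macrophage and dendritic cell markers in these libraries, 3.84 and 3.08 FPKM, stood against 5.58 in WT. The part of these cell types in the Ccl6 levels was not tested. In bulk crypts, fewer cells of a type and less RNA per cell cannot be told apart.

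Ccl25 (gene 20300, chromosome 8, 4325205 to 4360020) encodes the ligand of CCR9, which homes T cells to the small intestine. It had the highest level of the 10 genes in every library. The values were 485.8 FPKM in WT, with VEMD2 at 242, VEMD3 at 135, VEMD4 at 136, VEMD6 at 343 and VEMD8 at 251. All 5 knockout libraries lay below WT, and no step between neighbours reached 2-fold. The ratios were -1.84 and -1.83 in VEMD3 and VEMD4, and -0.95 and -0.50 in VEMD8 and VEMD6. In VEMD2 the ratio lay just short of the threshold at -0.9998, and passed it at -1.09 after rescaling. Its receptor gene Ccr9 was between 0.32 FPKM in VEMD6 and 1.1 in VEMD4, and Cdx2, a transcription factor of intestinal identity, stood at 108 FPKM in WT against 55.7 to 75.2 across the knockouts.

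Ccl28 (gene 56838, chromosome 13, 119623819 to 119654359) encodes a mucosal chemokine for plasma cells that carry CCR10. It was at 29.5 FPKM in WT, with VEMD2 at 16.6, VEMD3 at 16.0, VEMD4 at 9.24, VEMD6 at 22.9 and VEMD8 at 28.4. The lowest level was in VEMD4, at a ratio of -1.57, and the ratio in VEMD8 was -0.05, where the sign changes after rescaling. As with Ccl25, VEMD2, VEMD3 and VEMD4 were the 3 lowest libraries. Ccr10 had 0.03 FPKM in WT and was listed at 0 in all 5 knockouts, and the plasma cell marker Jchain was at most 1.27.

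The 8 chemokines summed to 694 FPKM in WT, with VEMD2 at 465, VEMD3 at 271, VEMD4 at 258, VEMD6 at 455 and VEMD8 at 375. Ccl25 made up 70.0% of this sum in WT, and its share in the knockouts ran from 49.7% to 75.2%. Ccl6 made up 19.8% in WT, 35.9% in VEMD2 and 1.06% in VEMD6. The total of the chemokine transcripts was therefore lower in VEMD3 and VEMD4 although Cxcl10, Cxcl1 and Cxcl5 were at their highest in VEMD4.

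**Figure D3:**
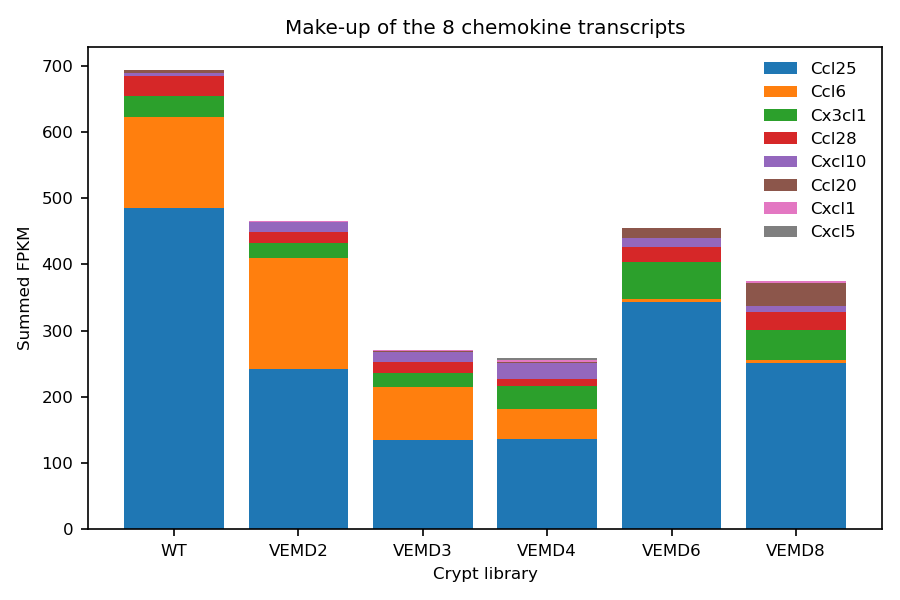
Summed FPKM of the 8 chemokine transcripts in each crypt library, stacked by gene from an axis at 0, with 1 library per bar. Ccl25 is the largest part of each bar, Ccl6 shrinks to a sliver in VEMD6 and VEMD8, and Ccl20 becomes visible there.

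Other chemokines of the crypts were few. Of 11 further CXC genes with values, 3 passed the filter. Cxcl16, a membrane-bound ligand of CXCR6, was the only one called, beside 24.5% of background genes called in at least 1 library. Its level was 6.62 FPKM in WT, with VEMD2 at 6.59, VEMD3 at 16.1, VEMD4 at 27.4, VEMD6 at 18.0 and VEMD8 at 13.1, with the top in VEMD4 as for Il33. Of 14 further CC and C genes, 5 passed, and Ccl24 was called lower in all 5 knockout libraries, beside 0.626% of background genes. It passed the filter only through its WT value, so its call is not like for like with this share. Ccl24, which attracts eosinophils through CCR3, was at 9.01 FPKM in WT, with VEMD2 at 3.44, VEMD3 at 0.38, VEMD4 at 0.05, VEMD6 at 0.18 and VEMD8 listed at 0. Of 21 chemokine receptor genes with values, 18 stayed under 1 FPKM in every library.

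Genes that relay these signals were read as lists. Of 21 NF-kB genes that passed the filter, 5 were called higher in at least 1 library, beside 12.2% of background genes, and none lower. Rel, at 0.31 FPKM in WT and 2.25 in VEMD4, was 1 of the 5 and was called in VEMD4 only. It passed the filter only through its knockout values and could not have been called lower, so its call is not like for like with these shares. VEMD4 had 3 higher, beside 7.11% of background genes, and VEMD6 had 1, beside 5.04%. VEMD2, VEMD3 and VEMD8 had 2 each, beside 2.44%, 6.00% and 4.36%. Tnf, a cytokine and target of NF-kB, was called higher in 4 of the 5, every one except VEMD6. It stood at 1.19 FPKM in WT, with VEMD2 at 3.57, VEMD3 at 4.25, VEMD4 at 5.5, VEMD6 at 2.15 and VEMD8 at 3.76. Their medians ran from -0.10 in VEMD2 to 0.26 in VEMD4, beside 0.09 and 0.03 for all background genes, with 0.16 in VEMD6 beside -0.23. Icam1, an adhesion molecule for leukocytes, was at 2.28 FPKM in WT, with VEMD2 at 8.13, VEMD3 at 8.99, VEMD4 at 7.22, VEMD6 at 2.96 and VEMD8 at 3.1. Tnfaip3, which encodes the feedback inhibitor A20, had 7.64 FPKM in WT against 19.3 in VEMD8, 15.6 in VEMD4 and 14.8 in VEMD6. The inhibitor gene Nfkbia was between 52.1 and 106 FPKM and was not called.

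Of 21 genes of interferon receptors, STATs and IRFs, 2 were higher and 1 lower in VEMD4, beside 7.11% and 5.04% of background genes. In VEMD8, 4 were lower, beside 5.21%. In each of the other 3 libraries 1 was lower, beside 2.39% in VEMD2, 4.63% in VEMD3 and 8.15% in VEMD6. Irf7, a regulator of interferon genes, stood at 213 FPKM in VEMD4 against 41.8 in WT, and Stat2 at 44.3 against 18.7. Ifng was at most 0.20 FPKM. No gene among the 9 IL-1 family receptors and adaptors that passed was called in any library, beside 24.5% of background genes called in at least 1.

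**Figure D4:**
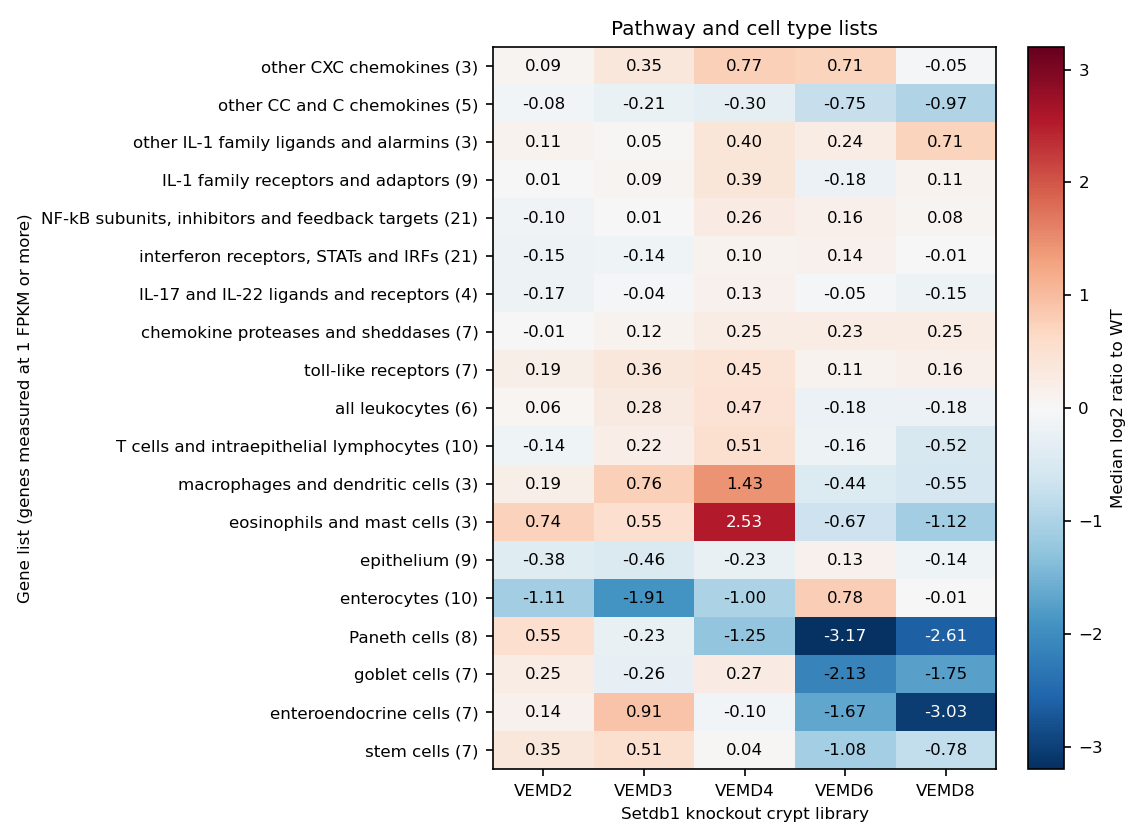
Median log2 ratio to WT of each pathway or cell type list (rows, with the number of genes that passed the filter) in each Setdb1 knockout crypt library (columns), red for higher and blue for lower. The lists of NF-kB, interferon, IL-1 receptor, IL-17 and toll-like receptor genes stay between -0.18 and 0.45, while Paneth cell markers reach -3.17 in VEMD6 and the eosinophil and mast cell list, which rests on 3 genes, reaches 2.53 in VEMD4.

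Likeness of pattern was measured as Pearson's r of log2(FPKM + 1) over the 6 libraries, among 2904 named genes that averaged 5 FPKM or more and spanned 1 or more on that scale. The libraries share 1 WT and differ in markers of gut position and cell type. Of these genes, 91 reached 0.95 with Ccl6, 87 with Cx3cl1 and none with Cxcl10. The nearest to Il33 were Oasl2 at 0.99, Agrn at 0.99 and Helz2 at 0.99. Ccl20 was nearest to Dynlt1b, Onecut2 and Slc13a1, at 0.98, 0.98 and 0.97. Hk1, Plscr1 and Cfb lay nearest to Cxcl1, at 0.996, 0.99 and 0.98, and Gimd1, Tnfrsf12a and Cdkn1a nearest to Cxcl10, at 0.95, 0.94 and 0.94. For Il1rn these were Atg9b, Epb41l2 and Mx1, at 0.99, 0.99 and 0.98, and for Cx3cl1 they were Cidec, Baiap2l1 and Jak2, at 0.999, 0.997 and 0.996. Fam83d and Lbh were among the nearest 3 to Ccl6, each at 0.99. Dpyd, Dhrs11 and Pdzd3 were nearest to Ccl25, each at 0.99, and Nipsnap2, Tmem205 and Rdh14 to Ccl28, at 0.97, 0.97 and 0.96. Spearman's rank correlation over 6 libraries is full of ties, with between 4 and 38 genes at or above the third place. Counting ties, 11 of the 27 nearest genes held such a place, and 5 did so where ties were broken by gene number.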

How the data were processed

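RNA of 6 crypt libraries was sequenced on a BGI-500 instrument from Trizol extracts, per the labels. The submitters' processing notes name HISAT2, featureCounts and edgeR and the builds GRCm38 and mm10, with no versions and without saying which tool made the gene table. The authors deposited FPKM with 2 decimals, a unit named per the file headers. Of 20718 lines, 3760 held no value, which left 16958 genes, 16916 of them with a symbol from RefSeq on GRCm38.p6. A deposited table of repeats, with 2 value columns tied to no sample by name, was not used here. Filter, ratio and 2-fold rule are given in the report. The ratio, the 2-fold rule and the likeness measure were checked on simulated data, with changes planted only in well expressed genes. The filter and the behaviour of the rule at low values were not checked in this way. Among low values, 5.83% to 8.07% of genes fell in the fullest bin of ratios to WT, and 2.71% to 3.53% in the next. Rounding also makes low values equal, so depth was not derived. The 10 genes and the 30 other lists (pathways, cell types, gut position, checks) were chosen with earlier results of these data known. Named genes are the 10 genes, Setdb1, the 3 nearest by likeness, the receptors, up to 6 genes per pathway list by largest ratio, and markers, of which 2 genes are not reported here. Chemokine neighbours within gene clusters, Adam10, Adam17, Nfkbia, Tslp, Il1a, Il1b, S100a8, S100a9 and Ifng stand outside this rule and were added after their values were seen. Python 3.11.15 with pandas 2.3.3, numpy 2.4.6 and matplotlib 3.10.9 was used. Alternatives were 0.1 or 5 FPKM added, rescaling to the median gene, no filter, a filter at 5 FPKM, and another likeness measure.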

Additional observations from a re-analysis of the deposited data

Results flagged for a closer look

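Ccl20 stood out because its ratios to WT had opposite signs past 2-fold in different knockout libraries. They were -1.96 in VEMD2 and -1.32 in VEMD3, against 1.43 in VEMD6 and 2.72 in VEMD8. With 1 library per group this difference was not tested. Among background genes, 123 or 1.13% showed both directions.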

How the results depend on the processing

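No paired analysis was possible because every library is a group of its own. No ratio past 2-fold changed sign under any of the 5 alternatives of pseudocount, scaling and filter, and the alternative without a filter left the ratio of every one of the 10 genes as it was. With 0.1 FPKM added in place of 1, 2 genes were lower in VEMD2, since Ccl25 joined Ccl20, and 1 gene, Cxcl1, was higher in all 5 knockout libraries. With 5 FPKM added, 1 gene was higher and 0 lower in VEMD2, 1 was lower in VEMD3, 3 were higher in VEMD4 and 1 was higher in VEMD6. Rescaling to the median gene gave 2 lower in VEMD2. With a filter at a mean of 5 FPKM, which leaves 7 of the genes, 1 was called higher in VEMD2 and 2 each in VEMD3 and VEMD4. As alternatives chosen after seeing the data, leaving out VEMD2 or VEMD8 gave 1 gene higher in every remaining knockout library, Il33 and Cxcl10 in turn, and leaving out any other gave none. Of the 27 genes nearest in pattern, 11 held a place among the nearest 3 with Spearman's correlation when ties were counted, and 5 when ties were broken by gene number. Depth limits Cxcl5, Cxcl1 and the low values of Ccl20 and Il1rn most, since the number of fragments behind FPKM near 0 is unknown.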

Other observations

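Among 7 toll-like receptor genes that passed the filter, 1 was called in at least 1 library, beside 24.5% of background genes. Tlr2, the toll-like receptor for bacterial lipoproteins, was at 3.86 FPKM in WT, with VEMD2 at 5.92, VEMD3 at 13.6, VEMD4 at 19.3, VEMD6 at 13.7 and VEMD8 at 19.3. It was thus called higher in every knockout library except VEMD2. Socs3, a feedback inhibitor of cytokine signalling, was at 24.6 FPKM in WT, with VEMD2 at 11.5, VEMD3 at 13.1, VEMD4 at 28.3, VEMD6 at 8.31 and VEMD8 at 15.7, and was called lower in VEMD2 and VEMD6. Proteases that act on chemokines or their anchors also differed. Anpep, a peptidase of the enterocyte brush border, had 1015 FPKM in WT against 399 in VEMD3 and 3497 in VEMD6, while Mmp7, a Paneth cell metalloprotease, had 151 in WT against 20.1 in VEMD6. Among receptors for IL-17 and IL-22, Il22ra1 was between 15.9 FPKM in VEMD2 and 35.3 in VEMD6, where its ratio of 0.96 became 1.20 after rescaling. Il17rc was the only gene called among 4 before rescaling, beside 24.5% of background genes called in at least 1 library. It had 54.7 FPKM in WT against 26.2 in VEMD8, a ratio of -1.03 that became -0.97 after rescaling.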
